A study of Mus musculus with 7 samples.

Results

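The genes described here carry out and control cholesterol synthesis by the mevalonate pathway, together with genes for cholesterol uptake, lysosomal release, transfer, esterification and efflux. The set was given as 30 named genes, and the members were the lines of the deposited files with those symbols. This gave 29 of the 24328 gene symbols in the files, and Hmgcs1 was not analysed here. By role, 10 members are enzymes from acetyl-CoA to lanosterol, 7 are SREBP factors or their controls, 7 act in uptake, lysosome, transfer and esterification, and 5 are LXR receptors or genes of efflux.

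The question was how the kidney transcriptome differs when LBR is lost, measured by sequencing polyadenylated RNA of 3 LBR-null mice (Lbric-J/ic-J, mice 4001, 4002 and 4007) and 1 wild-type littermate (Lbr+/+, WT, mouse 4009). All were C57BL/6J mice of 4 weeks of age, and no treatment is labelled for either group. The protein LBR anchors heterochromatin at the inner nuclear membrane, and its membrane part is itself a sterol C14-reductase of the late cholesterol pathway. The ic-J allele is a spontaneous loss-of-function mutation carried in the germline, so it is present in every cell, and the line was recovered from a frozen stock. There were 2 libraries from each mouse except 4002, which had 1, so 5 LBR-null libraries stood against 2 WT libraries from a single animal.

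Cells make cholesterol from acetyl-CoA through mevalonate, isoprenoid diphosphates, squalene and lanosterol. When sterol in the endoplasmic reticulum is scarce, Scap carries the precursors of the SREBP factors to the Golgi, where the Mbtps1 and Mbtps2 proteases free the part that enters the nucleus and activates the genes of synthesis and uptake, while Insig proteins hold Scap back when sterol is abundant. LXR receptors sense oxysterols and activate efflux through transporters such as Abca1 and Abcg1, and the ubiquitin ligase Mylip, which lowers lipoprotein uptake. The proximal tubule of the kidney takes up filtered lipoproteins and sterol-carrying proteins and converts cholesterol-derived vitamin D.

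Promoters of 5 members are shown because these genes held 3 of the 4 highest and some of the lower LBR-null to WT ratios among the members, and they were chosen after those values were seen. The sequences are the 250 bases before the annotated start in RefSeq, build GRCm38.p6, written 5′ to 3′ on the strand of the gene, and capitals mark the CCAAT box, which binds NF-Y (CCAAT, or ATTGG on the other strand), and the E-box CACGTG, which can bind SREBP and other factors.
Mvd (chr8:122443423-122443672, minus strand): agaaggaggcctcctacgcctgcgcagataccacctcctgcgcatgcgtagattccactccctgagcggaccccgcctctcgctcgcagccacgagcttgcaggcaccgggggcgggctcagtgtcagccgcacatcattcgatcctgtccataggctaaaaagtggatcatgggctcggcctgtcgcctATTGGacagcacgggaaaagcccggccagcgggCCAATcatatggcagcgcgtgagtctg
Srebf2 (chr15:82147019-82147268, plus strand): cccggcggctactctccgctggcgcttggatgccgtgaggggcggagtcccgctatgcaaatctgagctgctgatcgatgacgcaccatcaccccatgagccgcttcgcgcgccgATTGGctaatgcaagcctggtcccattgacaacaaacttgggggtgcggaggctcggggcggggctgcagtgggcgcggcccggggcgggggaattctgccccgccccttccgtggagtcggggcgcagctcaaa
Insig1 (chr5:28071162-28071411, plus strand): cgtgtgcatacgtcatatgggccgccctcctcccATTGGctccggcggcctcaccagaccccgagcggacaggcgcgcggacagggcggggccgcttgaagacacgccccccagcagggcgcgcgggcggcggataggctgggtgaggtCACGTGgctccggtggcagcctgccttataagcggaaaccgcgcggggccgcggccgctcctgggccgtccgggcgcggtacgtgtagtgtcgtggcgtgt
Mylip (chr13:45389492-45389741, plus strand): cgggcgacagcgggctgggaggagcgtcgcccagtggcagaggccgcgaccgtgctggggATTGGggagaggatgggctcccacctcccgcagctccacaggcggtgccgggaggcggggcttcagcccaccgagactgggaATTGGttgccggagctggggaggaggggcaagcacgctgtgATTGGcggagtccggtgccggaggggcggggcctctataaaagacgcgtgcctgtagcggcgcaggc
Abca1 (chr4:53159896-53160145, minus strand): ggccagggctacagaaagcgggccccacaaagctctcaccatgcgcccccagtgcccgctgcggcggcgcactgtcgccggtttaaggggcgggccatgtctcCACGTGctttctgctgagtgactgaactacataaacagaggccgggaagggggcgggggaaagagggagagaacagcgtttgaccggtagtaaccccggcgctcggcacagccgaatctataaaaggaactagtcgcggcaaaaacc
The Mvd window held a CCAAT box on each strand, the Mylip window held 3, and the Insig1 window held a CCAAT box and an E-box, while Abca1 held an E-box and no CCAAT box. Of the 29 members, 22 matched a promoter of 300 bases (250 before and 50 after the start) in the table. A CCAAT box stood in 15 of these 22 members, or 68.2%, against 41.1% of all 27025 genes with such a window. By role it stood in 6 of 7 enzymes, 4 of 7 SREBP genes, 4 of 4 genes of uptake and transfer, and 1 of 4 LXR genes. The E-box stood in 3 of 22 members (Insig1, Scap and Abca1), or 13.6%, against 8.09% of genes. The sterol regulatory element TCACNCCAC stood in 1 of 22 members (Stard3), or 4.55%, against 1.44% of genes. Both strands were searched, none of the 3 motifs contains another, and a match or its lack in this window is a description of the letters only.

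The values are normalized counts, namely reads on a gene divided by a size factor of the library, as the authors deposited them. Libraries held 20694016 to 26333284 reads on genes, so that 1 read was worth 0.787 to 1.15 normalized counts. Lbr itself measured 330, 314, 340, 495 and 448 in the LBR-null libraries and 416 and 381 in the WT libraries, so its RNA level did not separate the groups, and the level of this RNA does not check the allele. The 2 libraries of mouse 4001 differed more from each other than those of other mice, with a chi-square of 15.98 per degree of freedom over genes, against 2.837 for mouse 4007 and 2.594 for the WT mouse. Sex is not labelled. Xist, which is expressed from the inactive X chromosome, averaged 5785 and 9940 in mice 4001 and 4007 but 65.3 in mouse 4002 and 35.5 in the WT mouse. Y-linked Ddx3y averaged 1516 in mouse 4002 and 1284 in the WT mouse, and 141 and 44.3 in mice 4001 and 4007. Sex was therefore not matched between groups, and its part in the results was not tested.

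The members were well-expressed genes. Their median level over the 4 mice was 879 normalized counts, against 388 for all 17283 genes tested, and they ranged from 82.6 (Idi1) to 4788 (Npc2). Per kilobase of exon in the mm9 gene models, the highest WT levels were those of the lysosomal proteins Npc2 (1064) and Lipa (874), followed by Acat2 (656), and the lowest was that of the protease gene Mbtps2 (36.2). In the LBR-null mice Npc2 (1603 ± 796 per kilobase, SD, n = 3) and Mylip (868 ± 278) stood highest on average, both with a wide spread between mice. In WT kidney Mylip stood at 295 per kilobase.

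**Figure D1:**
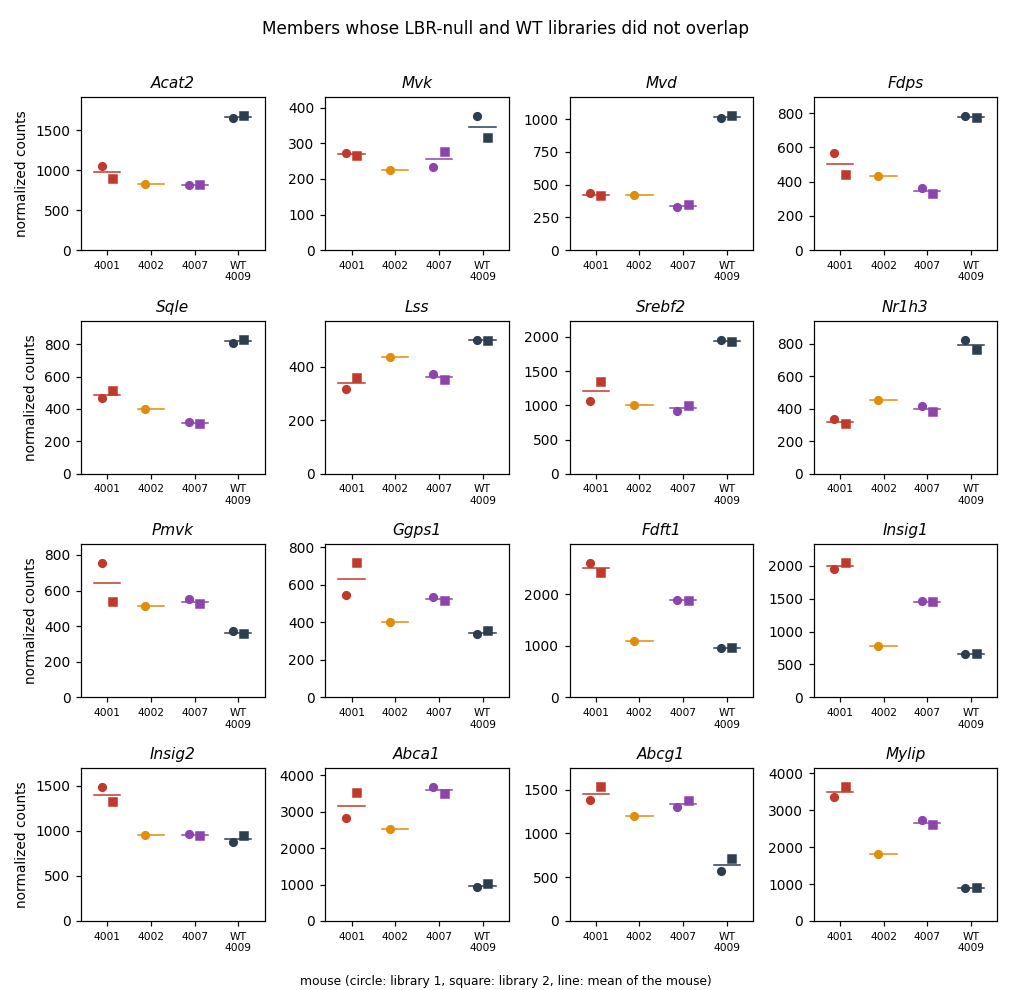
Normalized counts per library (vertical axes, each from 0) of the 16 members whose LBR-null and WT libraries did not overlap, by mouse (horizontal axes), with circles for library 1, squares for library 2 and lines for the mean of the mouse. The first 8 panels hold members below WT in every LBR-null library, such as Mvd, and the last 8 hold members above WT, such as Abca1.

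Across the members, some genes of synthesis were lower and the genes of efflux were higher in LBR-null than in WT kidney. Every LBR-null library lay above both WT libraries for 8 of 29 members (27.6%), against 22.2% of all 21468 genes with any read. Every LBR-null library lay below both WT libraries for 8 members (27.6%), against 21.4% of genes. Neither share stood far from that of all genes. The mean over LBR-null mice was at least 2-fold above WT for 4 members (Insig1, Abca1, Abcg1 and Mylip; 13.8%), against 22.7% of genes, and at least 2-fold below WT for 4 members (Mvd, Idi1, Sqle and Nr1h3; 13.8%), against 8.8% of genes. The members 2-fold above WT numbered 2 without mouse 4001, and those 2-fold below WT numbered 2 without mouse 4007. No member was of low count, whereas many of the 21468 genes were. Of the 17283 genes tested, 2513 were at least 2-fold above WT and 1217 at least 2-fold below. Among these tested genes, 4400 lay above WT in every LBR-null library and 4437 below.

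No member passed the limma test on log2(normalized counts + 1) of mouse means at an adjusted p of 0.05, as was so for all genes tested (0.0% of 17283). At an unadjusted p under 0.05, 3 members were higher (Abca1, Abcg1 and Mylip; 10.3%), against 10.7% of genes, and 6 were lower (Acat2, Mvd, Fdps, Sqle, Srebf2 and Nr1h3; 20.7%), against 8.05% of genes. edgeR on the recovered reads called 0.162% of genes and no member. DESeq2 on the same reads called Abca1, Abcg1 and Mylip higher (10.3% of members, against 3.39% of genes) and Acat2 and Mvd lower (6.9% of members, against 3.67% of genes). The fits gave the single WT animal the spread of the LBR-null group, since its own is unknown, and an exact permutation test of 3 mice against 1 could not go below a one-sided p = 0.25.

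Mouse 4001 stood apart from the other LBR-null mice in many members. It was the highest LBR-null mouse in 21 of 29 members and the lowest in 7, whereas mouse 4002 was the highest in 2 and the lowest in 16. Mouse 4001 also stood apart in some hepatocyte markers, with averages of 8759 for Alb and 476 for Cps1, against 2245 and 87.7 in mouse 4002, 1546 and 92.7 in mouse 4007 and 1565 and 87.3 in the WT mouse. The hepatocyte markers Apoa2 and Serpina1a were also highest in mouse 4001, but Ttr and Cyp2e1 were not. Ttr averaged 4004 in mouse 4001 and 4129 in mouse 4002, and Cyp2e1 averaged 5893 in mouse 4001 and 7257 in mouse 4007. The part of these markers in the values of the members was not tested. Without mouse 4001, limma called 3 members higher (the same Abca1, Abcg1 and Mylip, 10.3%), against 3.29% of genes, and 8 lower (Acat2, Mvd, Idi1, Fdps, Sqle, Srebf2, Stard4 and Nr1h3, 27.6%), against 4.22% of genes. Without mouse 4002 it called 2 members higher (Abca1 and Mylip, 6.9%), against 1.96% of genes, and none lower, against 1.66% of genes. Without mouse 4007 it called no member and 0.0% of genes. The calls after leaving out a mouse rest on 2 LBR-null mice and 1 WT mouse.

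**Figure D2:**
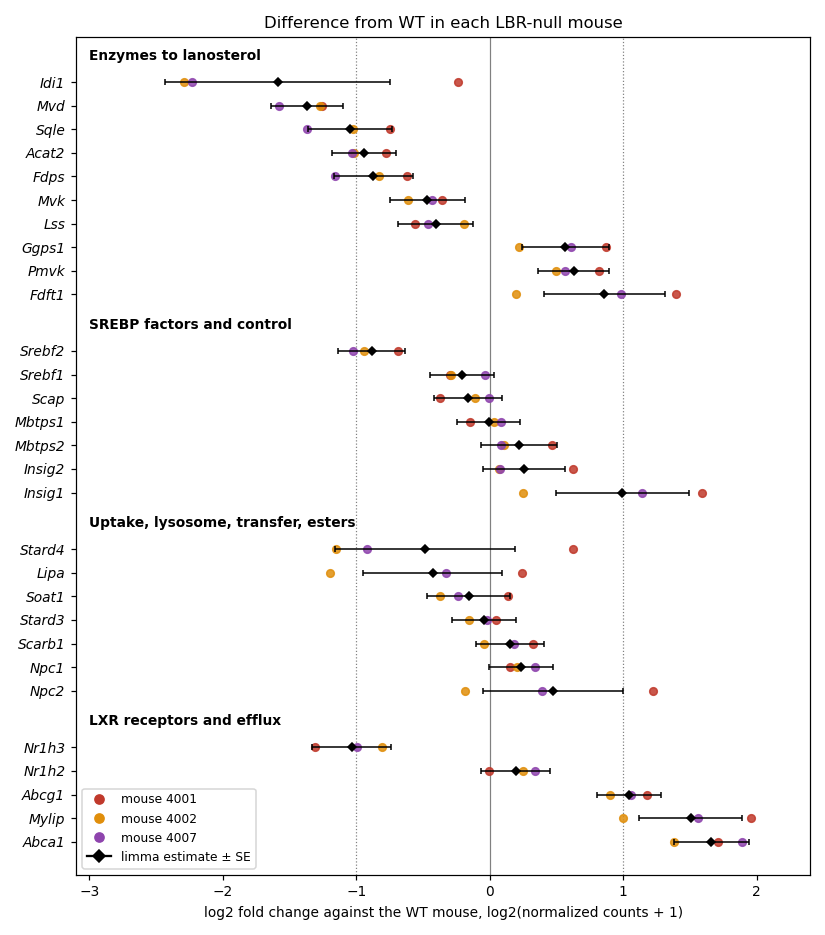
Log2 fold change of each member against the WT mouse (horizontal axis, on log2(normalized counts + 1)) in each LBR-null mouse (coloured points) with the limma estimate and its standard error (black diamonds and bars), members grouped by role. Mouse 4001 lies apart from the other LBR-null mice for Idi1 and Stard4, and all 3 mice lie beyond 1 on the log2 scale for Abca1.

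Among the 10 enzymes, 6 were below WT in every LBR-null library, 3 were above and 1 overlapped, against 21.4% of all genes below and 22.2% above. Their median log2 fold change was -0.67, against 0.01 for all genes tested. Against WT, the median was -0.46 for mouse 4001, and for mice 4002 and 4007 it was -0.72 and -0.75. Mvd, which decarboxylates mevalonate diphosphate to make isopentenyl diphosphate, had the clearest difference (chromosome 8, 124957496 to 124967322, minus strand, mm9). Its normalized counts were 436 and 410 in mouse 4001, 420 in mouse 4002, 332 and 347 in mouse 4007, and 1009 and 1021 in the WT mouse. Every LBR-null library lay far below both WT libraries, and the LBR-null mice lay close together at 394 ± 47.6 (SD, n = 3), 2.57-fold below WT. Its log2 fold change was -1.37 (SE 0.268), with a limma adjusted p = 0.101 and a DESeq2 adjusted p = 0.00129.

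Acat2, the cytosolic thiolase that joins acetyl-CoA units at the entry to the pathway, measured 1059 and 886 in mouse 4001, 825 in mouse 4002, 810 and 822 in mouse 4007, and 1661 and 1676 in the WT mouse. The mean of the LBR-null mice, 871 ± 88.0, was 1.92-fold below WT, with a log2 fold change of -0.94 (SE 0.242, limma adjusted p = 0.123, DESeq2 adjusted p = 0.0283). Acat2 shares sequence with its neighbour Acat3, and 31.8% of the 100-base words in its exons also occur there, so the division of reads between them is uncertain. Acat3 averaged 527, 303 and 595 in the LBR-null mice and 126 in the WT mouse, opposite in direction to Acat2. Summed, both genes gave 1346 ± 195 in LBR-null mice and 1794 in the WT mouse, a smaller gap than that of Acat2 alone.

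Sqle, the squalene epoxidase that takes the first oxygen-dependent step of sterol synthesis, measured 465 and 509 in mouse 4001, 402 in mouse 4002, 321 and 309 in mouse 4007, and 809 and 827 in the WT mouse. The groups did not overlap, and the LBR-null mean of 401 ± 86.0 was 2.04-fold below WT (log2 fold change -1.05, SE 0.317, limma adjusted p = 0.158). Fdps, which makes farnesyl diphosphate, measured 568 and 440, then 436, then 364 and 331 in the same order of mice, and 782 and 773 in the WT mouse. It too was lower in every LBR-null library, with a log2 fold change of -0.87 (SE 0.298, limma adjusted p = 0.192). Mevalonate kinase, Mvk, and lanosterol synthase, Lss, were lower by less. Mvk averaged 250 ± 22.5 against 345 (log2 fold change -0.47), and Lss averaged 379 ± 50.7 against 500.

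Idi1, which interconverts isopentenyl and dimethylallyl diphosphate, split the LBR-null mice. Its normalized counts were 144 and 105 in mouse 4001 but 29.2 in mouse 4002 and 29.8 and 31.0 in mouse 4007, against 143 and 150 in the WT mouse. Mouse 4001 thus reached the WT range, and the LBR-null mice differed 4.25-fold among themselves, the widest span of any member. The log2 fold change was -1.59 (SE 0.843, limma adjusted p = 0.369) with all mice and -2.26 (limma adjusted p = 0.0212) without mouse 4001.

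A further 3 enzymes were above WT in every LBR-null library. Squalene synthase, Fdft1, which commits farnesyl diphosphate to sterols, measured 2602 and 2408 in mouse 4001, 1091 in mouse 4002, 1893 and 1873 in mouse 4007, and 958 and 949 in the WT mouse. Mouse 4002 lay close to WT, and the other LBR-null mice lay well above it. The log2 fold change was 0.86 (SE 0.453, limma adjusted p = 0.368). Fdft1 shares 769 exon bases on the opposite strand with Ctsb, a lysosomal protease gene with 16312 normalized counts in the WT mouse, and 24.3% of its 100-base words occur there. Ctsb averaged 19109, 9589 and 10413 in the LBR-null mice, so the LBR-null mice had the same order for both genes. Mouse 4001 was above WT for both, mice 4002 and 4007 were below WT for Ctsb and above it for Fdft1, and whether the counting used strand is not given in the sources used here. Pmvk, the next kinase after Mvk, averaged 565 ± 69.0 against 363 (log2 fold change 0.63, limma adjusted p = 0.273). Ggps1, which makes geranylgeranyl diphosphate for protein prenylation, averaged 518 ± 115 against 344 (log2 fold change 0.57, limma adjusted p = 0.401).

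Of the 7 SREBP genes, Srebf2 alone was below WT in every LBR-null library, against 21.4% of all genes. Of the same 7, 2 (Insig1 and Insig2) were above, against 22.2% of all genes. Srebf2 encodes the SREBP factor that mainly drives cholesterol synthesis (chromosome 15, 81977696 to 82035806, plus strand, mm9), and it measured 1070 and 1345 in mouse 4001, 1011 in mouse 4002, 924 and 985 in mouse 4007, and 1956 and 1931 in the WT mouse. The LBR-null mean of 1058 ± 133 was 1.84-fold below WT, with a log2 fold change of -0.88 (SE 0.25, limma adjusted p = 0.141, DESeq2 adjusted p = 0.0648). Srebf1, whose products mainly drive fatty acid synthesis, measured 1362 and 1350, then 1366, then 1581 and 1667, against 1654 and 1683 in the WT mouse. Mouse 4007 thus reached the WT range, and the log2 fold change was -0.21 (SE 0.242).

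Insig1, which retains Scap and is itself a target of SREBP factors, was above WT in every LBR-null library. It measured 1944 and 2036 in mouse 4001, 784 in mouse 4002, 1461 and 1451 in mouse 4007, and 662 and 658 in the WT mouse. The LBR-null mean of 1410 ± 604 was 2.14-fold above WT, with mouse 4002 close to WT, and the log2 fold change was 0.99 (SE 0.496, limma adjusted p = 0.344). Without mouse 4001 the log2 fold change was 0.69, and without mouse 4002 it was 1.37 (limma adjusted p = 0.0616). Insig2, the second Insig gene, was above WT by less, at 1101 ± 258 against 906, and mice 4002 and 4007 exceeded the higher WT library, 939, by little. The escort Scap and the proteases Mbtps1 and Mbtps2 overlapped with WT, with log2 fold changes of -0.16, -0.01 and 0.22. Mbtps2 shares exon sequence with Yy2, where 34.2% of its 100-base words also occur, so its reads may be divided between both genes.

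None of the 7 genes of uptake, lysosome, transfer and esters was apart from WT in every library, against 22.2% of all genes above and 21.4% below. The median log2 fold change of these 7 genes was -0.05. The lysosomal cholesterol carrier Npc2 measured 8930 and 7264 in mouse 4001, 3042 in mouse 4002, 4520 and 4565 in mouse 4007, and 3467 and 3470 in the WT mouse. Mouse 4001 was far above WT and mouse 4002 was below it. Lipa, the lysosomal acid lipase, had the same order of LBR-null mice, with means of 3068, 1134 and 2063, and 2595 in the WT mouse. Stard4, a cytosolic sterol carrier, averaged 779 in mouse 4001 but 227 and 267 in mice 4002 and 4007, against 506 in the WT mouse. The log2 fold change of Stard4 was -0.48 (SE 0.674) with all mice and -1.04 (limma adjusted p = 0.0461) without mouse 4001. For these genes the spread between LBR-null mice was the main feature, at 2.66-fold for Npc2, 2.71-fold for Lipa and 3.43-fold for Stard4.

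The membrane partner Npc1 averaged 711 ± 48.3 against 604, but the 2 libraries of mouse 4001, at 499 and 845, differed more than the groups did. Scarb1, the receptor for high-density lipoprotein, averaged 902 ± 114 against 808. The late endosomal carrier Stard3 averaged 684 ± 48.5 against 704, and Soat1, which esterifies cholesterol, averaged 311 ± 58.6 against 344. All of these overlapped with WT, with log2 fold changes of 0.23, 0.15, -0.05 and -0.16.

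**Figure D3:**
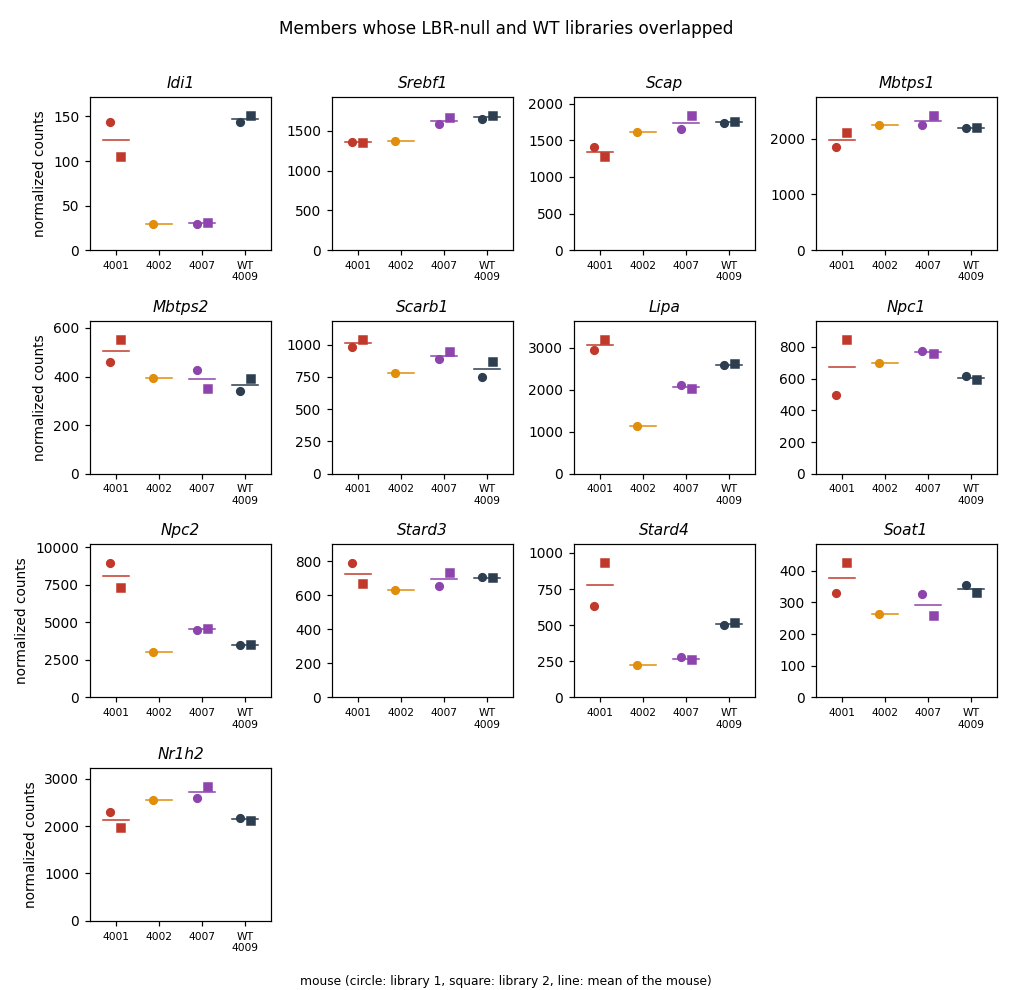
Normalized counts per library (vertical axes, each from 0) of the 13 members whose LBR-null and WT libraries overlapped, by mouse (horizontal axes), with circles for library 1, squares for library 2 and lines for the mean of the mouse. Mouse 4001 stands apart from mice 4002 and 4007 for Idi1, Npc2 and Stard4, and Mbtps1 and Stard3 sit near the WT level in every mouse.

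The LXR group held the highest ratios of the set. Abca1, the transporter that passes cholesterol to lipid-poor apolipoprotein A-I (chromosome 4, 53043659 to 53172767, minus strand, mm9), measured 2817 and 3511 in mouse 4001, 2520 in mouse 4002, 3679 and 3496 in mouse 4007, and 926 and 1008 in the WT mouse. The lowest LBR-null library was more than 2-fold above the higher WT library. The LBR-null mean of 3090 ± 537 was 3.20-fold above WT, with a log2 fold change of 1.66 (SE 0.282, limma adjusted p = 0.0906, DESeq2 adjusted p = 8.5e-05). Abca1 was the one member that DESeq2 called whichever LBR-null mouse was left out.

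Mylip, the ubiquitin ligase, measured 3375 and 3633 in mouse 4001, 1804 in mouse 4002, 2730 and 2608 in mouse 4007, and 906 and 902 in the WT mouse. Each LBR-null mouse was above WT, mouse 4002 the least. The log2 fold change was 1.50 (SE 0.385, limma adjusted p = 0.123, DESeq2 adjusted p = 0.00968). Abcg1, which passes cholesterol to mature high-density lipoprotein, measured 1379 and 1532, then 1205, then 1303 and 1377, against 576 and 712 in the WT mouse. Its LBR-null mice lay close together at 1333 ± 126, 2.07-fold above WT (log2 fold change 1.04, SE 0.24, limma adjusted p = 0.114, DESeq2 adjusted p = 0.0148).

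The LXR receptors themselves did not follow these genes. Nr1h3, which encodes LXRα, was below WT in every LBR-null library, at 334 and 305 in mouse 4001, 453 in mouse 4002, 415 and 382 in mouse 4007, and 824 and 764 in the WT mouse. The LBR-null mean of 390 ± 67.1 was 2.03-fold below WT, with a log2 fold change of -1.04 (SE 0.294, limma adjusted p = 0.142, DESeq2 adjusted p = 0.0513). Nr1h2, which encodes LXRβ and was the more abundant of the receptors per kilobase in both groups, averaged 2466 ± 298 against 2146, and mouse 4001 overlapped with WT.

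**Figure D4:**
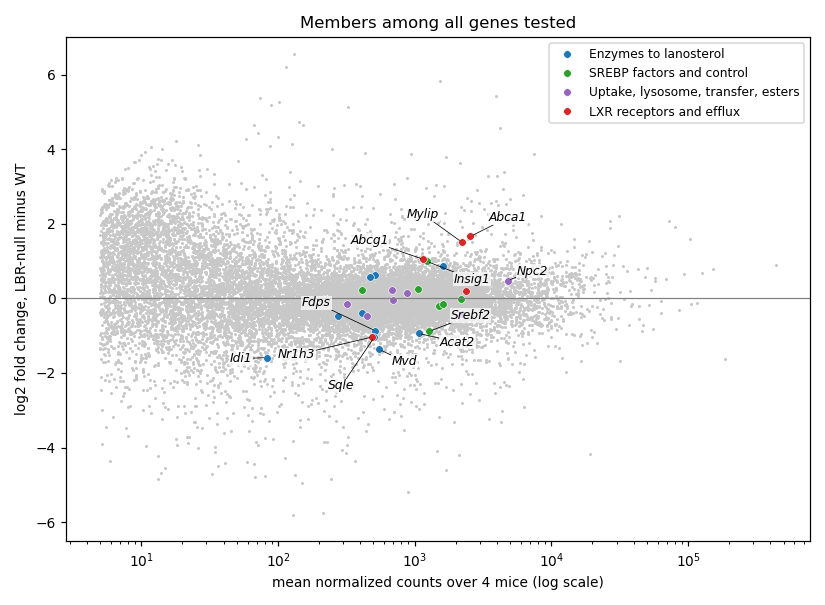
Limma log2 fold change, LBR-null minus WT (vertical axis), against the mean normalized counts over the 4 mice (horizontal axis, log scale) for the 17283 genes tested (grey) and the 29 members (coloured by role). Abca1 (1.66) and Mylip (1.50) are the highest members and Idi1 (-1.59) and Mvd (-1.37) the lowest, and many other genes of like abundance differ as much or more.

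The genes after lanosterol, which turn it into cholesterol, were lower as well. Of 10 late sterol genes, Lbr among them, 6 were below WT in every LBR-null library and 1, Ebp, was above, against 21.4% and 22.2% of all genes, and their median log2 fold change was -0.73. limma gave 4 of the 10 an unadjusted p under 0.05, all lower, against 8.05% of genes, and DESeq2 called 4 lower, against 3.67% of genes. Cyp51, which takes the methyl group from C14 of lanosterol directly before the step that LBR shares with Tm7sf2, averaged 495 ± 138 in LBR-null mice and 2440 in the WT mouse (log2 fold change -2.34, SE 0.348, limma adjusted p = 0.0843, DESeq2 adjusted p = 1.5e-06). Nsdhl and Dhcr7, which act in removal of the C4 methyl groups and in the reduction of 7-dehydrocholesterol, averaged 519 ± 116 against 1171 and 192 ± 35.3 against 435. Tm7sf2, the other C14-reductase gene, had a log2 fold change of -0.65 and was below WT in every library.

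Of 14 genes that use isoprenoids for protein prenylation, dolichol or ubiquinone, 9 were below WT in every LBR-null library and 1 was above, against 21.4% and 22.2% of all genes, with a median of -0.48. limma gave 3 of them an unadjusted p under 0.05, all lower, against 8.05% of genes. Pdss1, which makes the chain of ubiquinone, averaged 132 ± 37.8 against 308 (log2 fold change -1.26, SE 0.4, limma adjusted p = 0.171). Among the subunits of the transferases that attach farnesyl and geranylgeranyl groups to proteins, the log2 fold change was 0.30 for Fnta, -0.51 for Fntb, -0.25 for Pggt1b, -0.52 for Rabggta and 0.19 for Rabggtb.

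Of 13 genes of fatty acid synthesis that SREBP-1 activates, 11 were below WT in every LBR-null library and 1, Gpam, was above, against 21.4% and 22.2% of all genes, with a median of -0.86. limma gave 7 of them a lower and 1 a higher value at an unadjusted p under 0.05, against 8.05% and 10.7% of genes, and DESeq2 called 4 lower and 1 higher, against 3.67% and 3.39% of genes. Malic enzyme, Me1, averaged 1115 ± 287 against 5347, stearoyl-CoA desaturase 1, Scd1, averaged 516 ± 290.3 against 1997, and fatty acid synthase, Fasn, averaged 826 ± 147 against 2834. Adipocyte markers were lower in the same mice. Their sum was 55.9 to 280 normalized counts in LBR-null libraries and 1450 to 1455 in WT libraries. Of these 5 markers, 4 (Adipoq, Plin1, Cfd and Cidec) were below WT in every LBR-null library, against 21.4% of all genes. Their part in the result was not tested.

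The other LXR target genes had mixed directions. Of 8 such genes, 2 (Lpcat3 and Npc1l1) were above WT in every LBR-null library and 2 (Pltp and Arl4c) were below, against 22.2% and 21.4% of all genes, and the median log2 fold change was -0.27. Pltp, the phospholipid transfer protein, averaged 167 ± 11.8 against 342 (log2 fold change -1.03), and Npc1l1, which takes up sterol in the gut, was of low count at 14.3 ± 4.86 against 6.53. Of 10 genes that act in degradation of sterol-regulated proteins of the endoplasmic reticulum, 1 was above and 3 were below, against the same shares of all genes. Their median was -0.21. Of 15 other genes of sterol carriage, esters and oxysterols, 6 were above and 3 were below, against the same shares, with a median of 0.12. In that list Cyp27a1, which makes 27-hydroxycholesterol, averaged 1872 ± 961 against 407 (log2 fold change 2.09, SE 0.494, limma adjusted p = 0.115, DESeq2 adjusted p = 0.00202), and Cyp39a1, an oxysterol hydroxylase, averaged 747 ± 403 against 305.

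**Figure D5:**
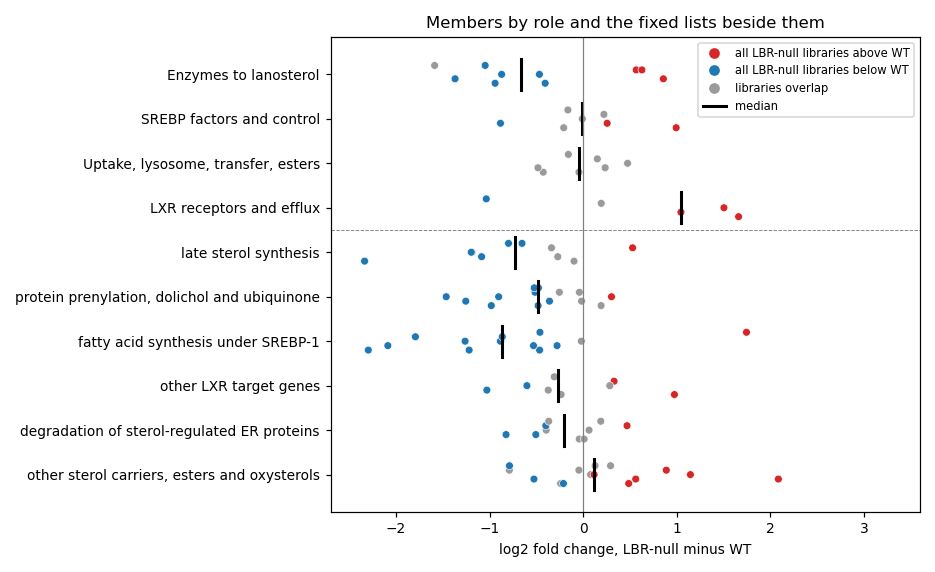
Log2 fold change, LBR-null minus WT (horizontal axis), of each gene in the 4 roles of the members (above the dashed line) and the 6 other gene lists (below it), with points coloured by whether all LBR-null libraries lay above WT, below WT or overlapped, and bars for the median. The medians of the enzymes (-0.67), late sterol genes (-0.73) and fatty acid genes (-0.86) lie below 0 and that of the LXR group (1.04) lies above it.

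Markers of other cells moved with the groups too. Summed kidney markers stood at 170114 to 381929 in LBR-null libraries and 539621 to 558922 in WT libraries. Kap, a proximal tubule gene under androgen control, made up most of the WT sum, and without it the sums were 110374 to 206480 and 191633 to 192618, which overlapped. The proximal tubule genes Slc34a1 and Lrp2 were below WT in every LBR-null library, as was Kap, while Slc12a1 of the thick ascending limb was above. Macrophages express Abca1, Abcg1 and Nr1h3, and summed macrophage markers were 3275 to 3817 against 4764 to 4838, with 7 of 10 below WT in every LBR-null library and 2 above, against 21.4% and 22.2% of all genes. The markers above were Cd163, at 123 ± 16.6 against 39.2, and Lyz2, at 709 ± 58.3 against 606, so the list had no single direction, and its part in the values of Abca1, Abcg1 and Nr1h3 was not tested. Neutrophil markers summed to 675 to 3023 against 303 to 311, and hepatocyte markers, some of which kidney tubules also express, to 13813 to 31903 against 8898 to 8907. The adrenal gland, which is rich in these genes, lies beside the kidney, and adrenal cortex markers summed to 181 to 256 against 126 to 146, with Cyp11b1, Cyp11b2 and Nr5a1 under 5 in every library. Of the 8 adrenal markers, 4 were above WT in every LBR-null library, against 22.2% of all genes. These 4 averaged 175 ± 27.6 against 121 for Star, 18.4 ± 6.35 against 8.18 for Mc2r, 15.4 ± 4.45 against 0.452 for Hsd3b1 and 11.7 ± 7.63 against 2.14 for Cyp21a1. In bulk kidney RNA, fewer cells of a type and less RNA per cell cannot be told apart, and apart from these values the part of cell makeup in the results was not tested.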

How the data were processed

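Kidney RNA of 3 LBR-null mice and 1 WT mouse was sequenced after poly(A) selection, and libraries were grouped by the genotype in the labels. The authors mapped them with STAR 2.6.0 to the mm9 genome and deposited a signal per gene symbol and library, that is, reads on the gene over the size factor computed by DESeq2 1.25.1. The program that counted reads is not given in the sources used here. All deposited values (100%) were whole multiples of the value of 1 read, within 0.01 read, so read counts were recovered by division. Libraries held 20694016 to 26333284 reads on genes. Since only mice are replicates, the p-values of fits to mice rest on the spread among the LBR-null mice. The single WT mouse gives no spread of its own. Normalized counts were averaged within a mouse.

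In R 4.3.3, mouse means were put on the scale log2(normalized counts + 1), which understates fold changes of low genes, and tested with limma 3.58.1 (moderated by eBayes, trend allowed). Genes with a mean under 5 were left out, p-values were adjusted by Benjamini-Hochberg over the other 17283, and 2 residual degrees of freedom remained. Recovered reads, summed per mouse, went into the quasi-likelihood test of edgeR 4.0.16 and into DESeq2 1.42.0 as alternatives, and the latter gave an adjusted p for 16612 genes. Other pseudocounts, no filter, other scalings, a fit with no trend, the first library of each mouse, a block by library number and leaving out each mouse or WT library were also tried. The fits were tested on simulated counts.

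Library numbers do not pair the mice, since deviations of libraries with the same number correlated at -0.016, -0.005 and -0.042. The named genes are all members, up to 3 genes of each list with the largest difference among those at least 2-fold apart with no overlap of libraries, and check genes; Fnta, Fntb, Pggt1b, Rabggta, Rabggtb, Lpcat3, Arl4c, Ebp, Gpam and Tm7sf2 were named, and the marker sum without Kap and the DESeq2 fits without each mouse were added, after values were seen. The members and lists were chosen with earlier results of these data known. Gene coordinates and exon lengths follow the mm9 gene models, and promoters follow RefSeq on GRCm38.p6, with no conversion between builds. Hmgcs1 was not analysed here. The result of 1 list gene is not reported here.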

Additional observations from a re-analysis of the deposited data

Results flagged for a closer look

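Of the 29 members, 1 had a library far from the other LBR-null libraries. Pmvk, which phosphorylates mevalonate phosphate, stood at 752.1 normalized counts in library 1 of mouse 4001, and the other 4 LBR-null libraries lay between 513.3 and 552.27. The gap was larger than the 95% limit of Dixon's test for 5 values, which chance passes in about 1 in 20 groups, and both libraries of mouse 4001, like those of mouse 4007, share their animal. The second library of mouse 4001 stood at 534.2, and both WT libraries, at 373.3 and 353.7, were below all 5.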

How the results depend on the processing

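Direction was kept in 544 of 551 pairs of a member and a setting, and 26 of 29 members kept it in all 19 settings. The exceptions were Mbtps1, Stard3 and Stard4, with the following log2 fold changes. With limma and each LBR-null mouse left out in turn, Mbtps1 ranged from -0.0565 (without 4007) to 0.0586 (without 4001) and Stard3 from -0.0907 (without 4001) to 0.0108 (without 4002). Mbtps1 was 0.0449 with DESeq2 without 4001, Stard3 was 0.0071 in both fits to 6 libraries, and Stard4 was 0.0549 and 0.0069 with DESeq2 without mice 4002 and 4007. The count of members called was 0 with limma and edgeR and 5 with DESeq2. Leaving out each LBR-null mouse gave 0 to 11 with limma (11 without mouse 4001, 2 without 4002) and 1 to 11 with DESeq2 (11 without mouse 4001, 5 without 4002, 1 without 4007), where DESeq2 called 585, 466 and 119 genes higher and 850, 534 and 170 lower. The replicate block by library number, with mouse as a random effect and mouse 4002, which has 1 library, left out, gave 10 members and 732 genes higher and 846 lower of 17283. The same fit to 6 libraries without the block also gave 10 members, with 981 genes higher and 1114 lower, and at an unadjusted p under 0.05 both gave 8 higher. Leaving out a mouse gave 3 to 5 higher with limma (5 without mouse 4002) and up to 6 with DESeq2, and 3 to 8 lower with limma (3 without mouse 4007) and as few as 2 with DESeq2. The members 2-fold higher fell to 2 without mouse 4001, and those 2-fold lower to 2 without mouse 4007. The cause was not tested. The counts at an unadjusted p under 0.05 in these settings were not compared with the shares of all genes. Whether the members moved more than genes in general there was therefore not tested. The median of the LXR group was 0.90 and 1.20 without WT library 1 and 2. An effect of depth on the members was not tested. The WT group is 1 mouse, and its spread between animals is unknown.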
